A study of Mus musculus with 8 samples.

Results

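The genes described here are the ligands and receptors of the tumour necrosis factor (TNF) superfamily whose symbols start with Tnfsf (ligands) or Tnfrsf (receptors). Membership was set by symbol alone, which gave 32 genes, 12 ligand and 20 receptor symbols, of 23500 in the deposited tables. This set of members was chosen with earlier results of these data known. The cells were p53-knockout mesenchymal stem cells of mouse bone marrow, which can form bone, cartilage or fat cells, kept for fewer than 20 passages. They formed 4 clonal lines, numbered 2, 4, 8 and 12, and every library, controls included, lacked p53. Each clone carried a retrovirus with luciferase (Luc, the control) or with cFos, a subunit of the transcription factor AP-1, which gave 4 Luc and 4 cFos libraries of polyadenylated RNA, 1 per clone and virus. "Luc 8" below is the Luc library of clone 8, and values in series follow the order of clones 2, 4, 8 and 12.

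TNF superfamily ligands are mostly trimeric membrane proteins, some of them shed, that cluster their receptors. The receptors recruit TRAF adaptors, which lead to NF-kappaB and the JNK kinases, or death domain adaptors, which lead to caspase 8, and decoy receptors bind ligand without passing on a signal. In bone, stromal cells and osteoblasts make RANKL (Tnfsf11), which drives osteoclast formation through RANK (Tnfrsf11a), and osteoprotegerin (Tnfrsf11b), the soluble decoy that binds RANKL.

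Levels are the authors' FPKM, fragments scaled to transcript length and to the mapped fragments of the library, summed over the transcripts of a gene, and group values are means ± SD over the clones (n = 4). The tables hold no read counts. Sequence aligned to transcripts came to 6.93 to 9.14 gigabases a library. The 15 haematopoietic cell markers summed to 2.73 to 3.17 FPKM in Luc and 1.73 to 2.63 in cFos, 13 of them were under 1 FPKM in every library, and Tyrobp was listed at 0 in all 8. The 7 endothelial markers summed to 0.288 to 0.661 FPKM in Luc and 0.252 to 0.380 in cFos, with Cdh5 at 0 throughout, while Col1a1, a collagen chain made by stroma, reached 831 to 2401 FPKM. The 14 marrow stromal markers summed to 4768 to 10250 FPKM in Luc and 3502 to 5228 in cFos. Without Cxcl12, a chemokine that fell (3364 ± 2680 and 359 ± 202 FPKM, limma adjusted p = 0.0154, 0.0558 without cFos 2), the other 13 summed to 2291 to 5506 and 3215 to 4583. Most of these sums came from Col1a1 and Col1a2, so they say little of the other markers. Some were low, with Lepr at 0.105 to 1.39 FPKM in Luc and 0.0314 to 0.816 in cFos, and Eng at 0.2585 to 1.285 and 0.501 to 2.12. Nt5e ran from 0.167 to 2.48 and 0.552 to 7.94, and Thy1 from 0.0916 to 21.9 and 0.142 to 23.8. Of the 11 stromal markers tested, 8 had a positive log2 difference and 3 a negative one, and Pdgfrb, a growth factor receptor, rose (86.8 ± 16.2 and 147 ± 28.6 FPKM, limma adjusted p = 0.0442, a call lost without any library but Luc 4 and cFos 12, up to 0.129). With the clone as a block Pdgfrb also passed (limma adjusted p = 0.02135). The part of these markers in the results below was not tested. Fos averaged 116 ± 125 FPKM in Luc and 697 ± 226 in cFos and was higher in the cFos library of each clone. In bulk RNA, fewer cells of a type and less RNA per cell cannot be told apart.

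Of the 32 members, 13 reached 1 FPKM in at least 4 libraries and were tested, 9 reached it in all 8, and 16 stayed under 1 FPKM everywhere. The receptors Tnfrsf12a, Tnfrsf1a and Tnfrsf11b together made up 66.5 to 83.4% of the summed member FPKM of a library. Receptors summed to 165.7 to 255.3 FPKM in Luc and 253 to 303 in cFos, and ligands to 14.9 to 28.6 and 14.5 to 18.8. Between cFos and Luc, 1 tested member rose, Tnfrsf9, none fell, and 12 did not pass (limma, Benjamini-Hochberg adjusted p under 0.05). That is 1 of 13 beside 5.55% of the 11162 genes tested (2.92% higher and 2.62% lower in cFos). With the clone as a block the count was also 1, beside 8.79% of all genes. At an unadjusted p under 0.05, 3 members rose (Tnfrsf9, Tnfrsf12a and Tnfsf9) and 0 fell, beside 20.1% of all genes in either direction. Of the 11162 genes, 1011 were higher and 1236 lower in cFos at that threshold. The median log2 difference, on the scale of log2(FPKM + 0.5), was 0.17 over the 13 members and -0.06 over all genes. It was -0.37 over the 4 tested ligands and 0.27 over the 9 tested receptors. Tnfrsf9 passed the filter on level through its 4 cFos libraries, as 1 of its Luc libraries reached 1 FPKM, so its place in these counts is no support. Tnfsf9 reached 1 FPKM in all 4 cFos libraries but in 2 Luc libraries, so its place among the 3 rises is no support either.

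**Figure D1:**
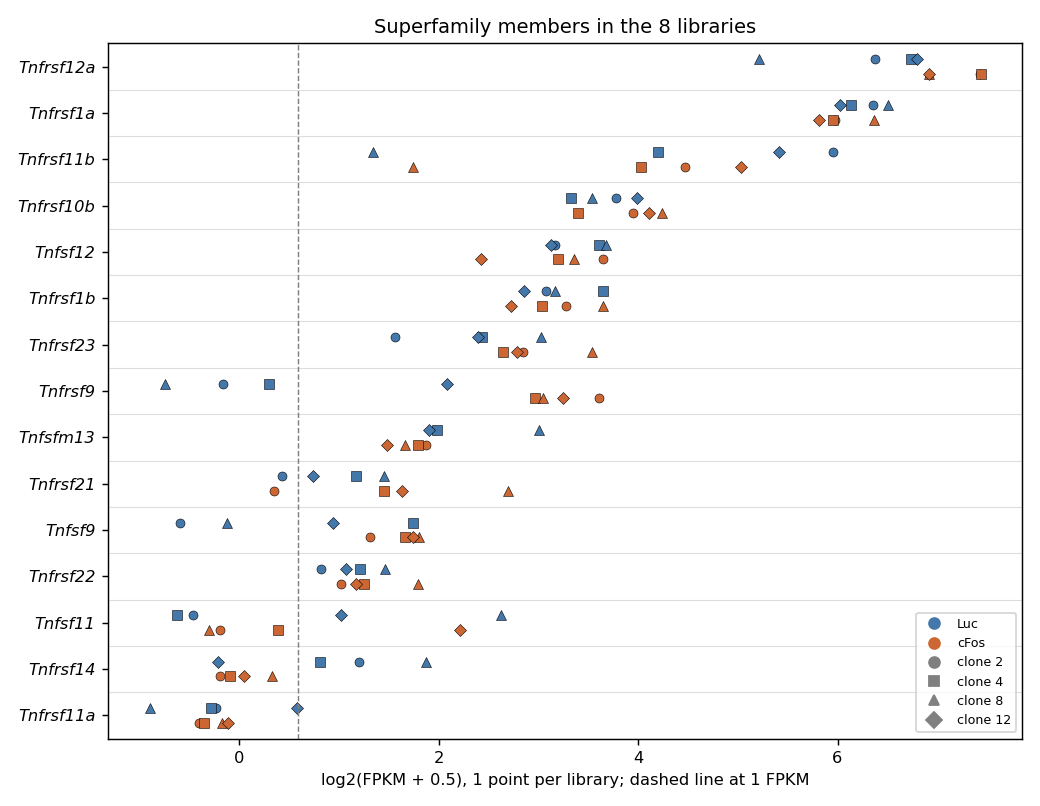
Level of 15 members in each library on the log2(FPKM + 0.5) axis, 1 point per library, blue for Luc and orange for cFos, with a shape for each clone and a dashed line at 1 FPKM. The 4 cFos points of Tnfrsf9 lie to the right of its 4 Luc points, and Tnfrsf11b spans a wide range in which both libraries of clone 8 are lowest.

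Tnfrsf9 encodes 4-1BB (CD137), a co-stimulatory receptor best known from activated T cells that signals through TRAF adaptors. The deposited tables list it on chromosome 4 of mm9, from 150294264 to 150320211, as 3 transcript entries with 2 separate starts 7844 bases apart. Promoters at these starts, from 250 bases before to 50 after, are shown because Tnfrsf9 was the member that rose and cFos acts at AP-1 motifs. The sequences are those of RefSeq on build GRCm38.p6, plus strand. The upstream one is chr4:150919905-150920204 and the downstream one chr4:150927749-150928048. Capitals mark a match to the AP-1 motif TGANTCA, which is the same on both strands, and overlapping matches to the kappaB consensus, searched on both strands.
Tnfrsf9 upstream start: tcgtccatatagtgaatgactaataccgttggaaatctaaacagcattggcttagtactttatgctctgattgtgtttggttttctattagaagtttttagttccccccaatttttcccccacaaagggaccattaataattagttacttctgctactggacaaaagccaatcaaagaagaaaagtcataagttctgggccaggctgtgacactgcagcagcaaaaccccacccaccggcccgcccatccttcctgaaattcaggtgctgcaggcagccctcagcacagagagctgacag
Tnfrsf9 downstream start: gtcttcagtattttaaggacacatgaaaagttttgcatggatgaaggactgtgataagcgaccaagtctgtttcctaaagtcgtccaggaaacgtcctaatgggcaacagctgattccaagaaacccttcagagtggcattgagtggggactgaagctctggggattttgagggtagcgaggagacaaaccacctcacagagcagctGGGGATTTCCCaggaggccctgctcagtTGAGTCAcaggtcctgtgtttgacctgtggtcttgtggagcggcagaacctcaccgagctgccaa

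The downstream window held an AP-1 match at -15 and overlapping kappaB matches from -43, counted from the start, and the upstream window held neither. The window of Tnfrsf8, which encodes CD30 and was listed at 0 in 7 libraries, also held both motifs (AP-1 at -132 and kappaB at -168), and no other member window held the kappaB consensus. Among 32851 promoters of the same length, 7.81% held the AP-1 motif, 4.51% the kappaB consensus and 0.332% both. Promoters were found for 25 members, and 6 of their 29 windows held the AP-1 motif. Those 6 belong to Tnfrsf8, Tnfrsf9, Tnfsf13, Tnfsf14 and Tnfsf13b, whose 2 windows overlap. A match describes the letters of a window, not a bound site.

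In the Luc libraries Tnfrsf9 stood at 0.393, 0.731, 0.0965 and 3.73 FPKM, and in the cFos libraries at 11.7, 7.28, 7.78 and 8.97. The lowest cFos library was above the highest Luc library, Luc 12, and the other Luc libraries were under 1 FPKM. Means were 1.24 ± 1.68 and 8.93 ± 1.96 FPKM, a log2 difference of 2.85 (SE 0.53, 95% interval 1.66 to 4.03, limma adjusted p = 0.0169). Within clones the ratio of cFos to Luc was 29.7, 9.97, 80.7 and 2.40, so clone 12 had the smallest. Without cFos 2 the call was lost (adjusted p = 0.0646), as it was without both libraries of clone 8 (0.0558) and without the filter (0.0509). The transcript from the upstream start averaged 0.732 ± 1.05 FPKM in Luc and 5.49 ± 1.32 in cFos, and that from the downstream start 0.506 ± 0.637 and 3.43 ± 0.704. The upstream entry held 59.1% of the gene's FPKM in Luc and 61.5% in cFos, so entries from both starts were higher in cFos and their shares stayed close.

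Tnfsf9 encodes 4-1BBL, the ligand of 4-1BB (mm9 chr17:57244808-57247180). Its Luc libraries had 0.160, 2.85, 0.419 and 1.42 FPKM and its cFos libraries 1.99, 2.66, 2.99 and 2.84. The arms overlapped through clone 4, whose Luc library was as high as the cFos ones, while the cFos library was higher in the other 3 clones. Means were 1.21 ± 1.22 and 2.62 ± 0.441 FPKM, and the log2 difference of 1.14 (SE 0.46) did not pass (limma adjusted p = 0.214).

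**Figure D2:**
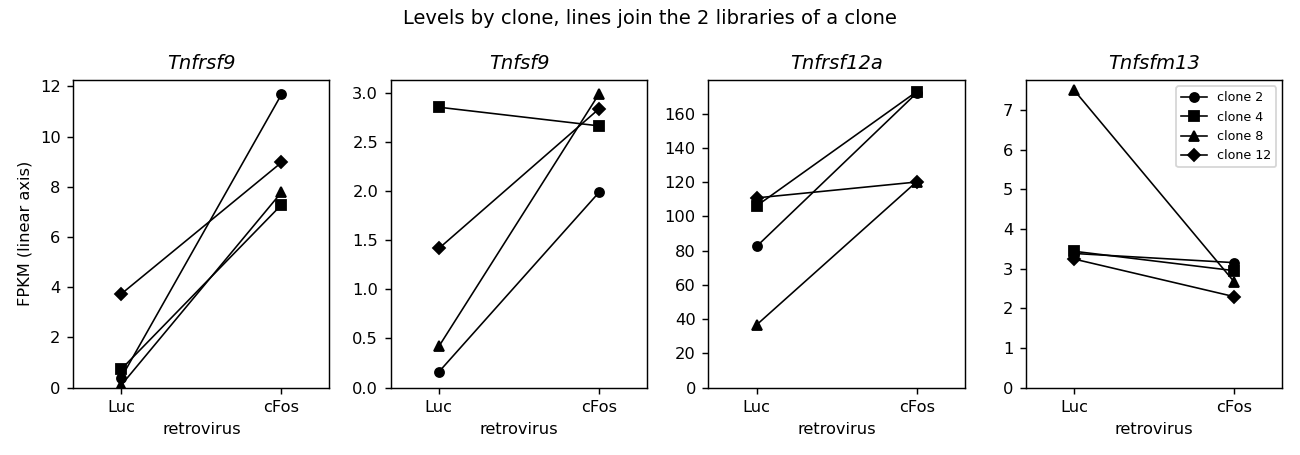
FPKM of Tnfrsf9, Tnfsf9, Tnfrsf12a and Tnfsfm13 on linear axes from 0, with a line joining the Luc and cFos libraries of each clone. All 4 lines of Tnfrsf9 and Tnfrsf12a go up, the Tnfsf9 line of clone 4 goes slightly down, and the Tnfsfm13 line of clone 8 starts at 7.50 FPKM in Luc.

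Tnfrsf12a (mm9 chr17:23812412-23814416), the receptor Fn14 for the cytokine TWEAK, had the highest mean of the members, and Tnfrsf1a was above it in Luc 8. It had 82.4, 106, 36.6 and 111 FPKM in Luc and 172, 173, 120.3 and 120.1 in cFos. All cFos libraries lay above all Luc libraries, by little in clone 12 and most in clone 8. This holds for the sum of its 2 transcript entries. In clone 12 the entry of 965 bases had 82.7 FPKM in Luc and 35.4 in cFos. The entry of 860 bases had 28.2 and 84.7. Means were 84.0 ± 34.0 and 146 ± 30.2 FPKM, but the log2 difference of 0.89 (SE 0.34) did not pass (limma adjusted p = 0.177). Groups that do not overlap were seen for 3 of the 13 tested members, 2 higher and 1 lower in cFos, beside 13.7% of all genes tested (5.86% higher and 7.8% lower). Its share of the summed receptor FPKM was 22.1 to 46.6% in Luc and 45.3 to 60.2% in cFos.

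Tnfsf12, which encodes TWEAK itself (mm9 chr11:69499742-69509600), had 8.45, 11.7, 12.3 and 8.24 FPKM in Luc and 12.1, 8.66, 9.74 and 4.87 in cFos. The arms overlapped and clone 2 went the other way from the rest (log2 difference -0.24, limma adjusted p = 0.672). Tnfsfm13 (mm9 chr11:69496079-69509600) is a read-through transcript that joins Tnfsf12 to Tnfsf13, which encodes the B-cell factor APRIL, and its reads cannot be fully told apart from theirs. It had 3.38, 3.44, 7.50 and 3.24 FPKM in Luc and 3.15, 2.95, 2.66 and 2.29 in cFos. Every cFos library was below every Luc library, with Luc 8 far above the rest, and the log2 difference of -0.51 (SE 0.26) did not pass (limma adjusted p = 0.310). This holds for the sum of its 2 transcript entries. The entry of 2229 bases was higher in cFos in clone 4 (1.26 FPKM in Luc and 1.38 in cFos) and clone 12 (1.75 and 1.97). It was lower in clones 2 and 8, and the entry of 2235 bases was lower in all 4 clones. Tnfsf13 averaged 1.47 ± 0.893 and 0.629 ± 0.293 FPKM, was lower in cFos in all 4 clones and did not pass either (-0.70, limma adjusted p = 0.372).

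Tnfrsf1a (mm9 chr6:125299741-125312501) encodes TNF receptor 1, the death domain receptor that most cells carry. It had 81.2, 69.9, 90.6 and 64.6 FPKM in Luc and 62.4, 61.5, 82.1 and 55.7 in cFos. The cFos library was lower in each clone, though the arms overlapped. Within each clone the authors' confidence limits, whose level the headers do not state, did not meet, and they cover the estimate of 1 library, not the spread between clones. Across clones the log2 difference was -0.23 (SE 0.16, limma adjusted p = 0.477). Tnfrsf1b, TNF receptor 2, which lacks a death domain (mm9 chr4:144802271-144836773), had 7.95, 12.0, 8.49 and 6.72 FPKM in Luc and 9.19, 7.68, 12.0 and 6.11 in cFos. It was higher in cFos in clones 2 and 8 and lower in clones 4 and 12 (log2 difference -0.02, SE 0.23, limma adjusted p = 0.979). Tnf, the ligand of both, was listed at 0 in 7 libraries and at 0.0200 FPKM in cFos 12.

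Tnfrsf10b (mm9 chr14:70167279-70184218) encodes the death receptor for TRAIL. It had 13.2, 9.54, 11.1 and 15.4 FPKM in Luc and 14.9, 10.0, 18.4 and 16.8 in cFos. It was higher in cFos in each clone with overlapping arms, and the log2 difference of 0.26 (SE 0.22) did not pass (limma adjusted p = 0.549). Tnfrsf23 and Tnfrsf22 lie next to each other on chromosome 7 and encode decoy TRAIL receptors of the mouse. Tnfrsf23 (mm9 chr7:150851712-150871777) had 2.45, 4.90, 7.61 and 4.75 FPKM in Luc and 6.67, 5.74, 11.1 and 6.39 in cFos. It was higher in cFos in each clone, with authors' limits that did not meet in any of the 4, but the arms overlapped (log2 difference 0.60, SE 0.31, limma adjusted p = 0.328). Tnfrsf22 (mm9 chr7:150822630-150835543) ran from 1.26 to 2.25 FPKM in Luc and 1.53 to 2.97 in cFos (log2 difference 0.17, limma adjusted p = 0.736). Tnfsf10, which encodes TRAIL, reached at most 0.649 FPKM, in Luc 2.

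Tnfrsf21 encodes death receptor 6 (mm9 chr17:43153504-43226137). It had 0.846, 1.76, 2.23 and 1.17 FPKM in Luc and 0.773, 2.24, 5.99 and 2.61 in cFos. Clone 2 was low in both arms and cFos 8 was highest (log2 difference 0.59, limma adjusted p = 0.529). Over the 13 tested members, 8 went the same way in all 4 clones, beside 36.2% of all genes tested, and 5 did not.

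**Figure D3:**
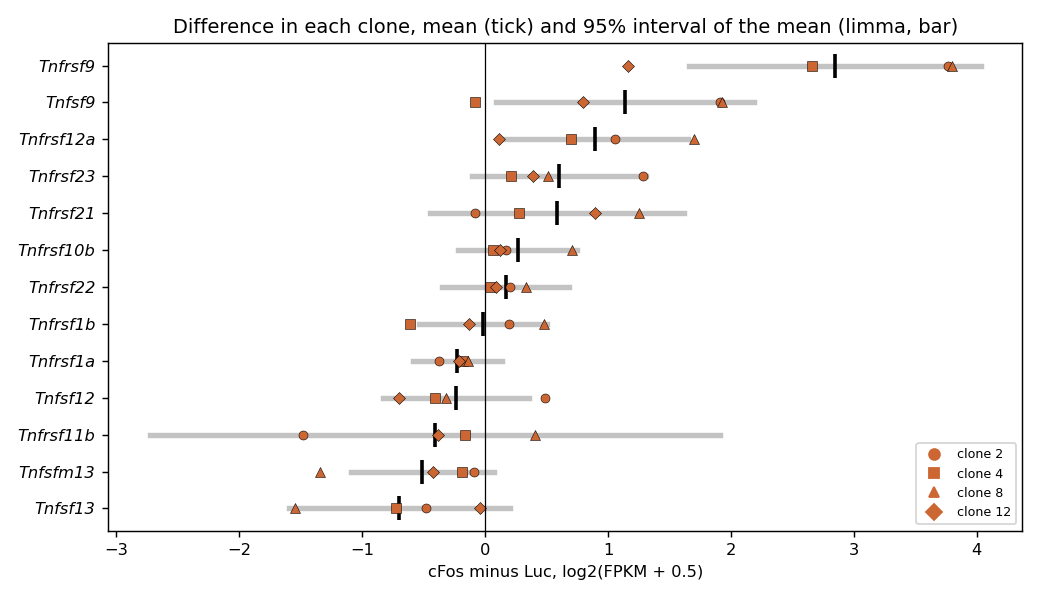
Difference of cFos minus Luc on the log2(FPKM + 0.5) scale for the 13 tested members, 1 point per clone, with the mean as a tick. The bar is limma's 95% interval from the fit with no clone term. It also holds differences in level between clones, so it does not measure the spread of the points. The bars of Tnfrsf9, Tnfsf9 and Tnfrsf12a stay above 0, and the bar of Tnfrsf11b, from -2.73 to 1.92, is the widest. The points of Tnfrsf11b run from -1.48 to 0.40, and its SE was 1.03 without and 0.289 with the clone as a block.

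Of the genes that control bone resorption, Tnfsf11 (RANKL, mm9 chr14:78677253-78707850) reached 1 FPKM in 3 libraries only and had no test across genes. It had 0.223, 0.150, 5.66 and 1.53 FPKM in Luc and 0.375, 0.811, 0.309 and 4.13 in cFos. Levels were highest in Luc 8 and cFos 12, and the arms overlapped. The ratio of Luc 8 to cFos 8 was 18.3, while cFos was the higher library in the other 3 clones. Over the libraries the mean log2 difference was -0.11 (exact permutation test, two-sided, 70 arrangements, p = 0.886). Exchanging arms within clones gave p = 1 (exact, 16 exchanges, smallest p possible 0.125).

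Tnfrsf11b (osteoprotegerin, mm9 chr15:54082174-54110039) had 61.5, 17.9, 2.03 and 42.2 FPKM in Luc and 21.7, 15.9, 2.85 and 32.2 in cFos. It was lower in cFos in clones 2, 4 and 12 and higher in clone 8, which was lowest in both arms. Means were 30.9 ± 26.3 and 18.2 ± 12.3 FPKM (log2 difference -0.41, SE 1.03, limma adjusted p = 0.868, exact permutation p = 0.686). The ratio of Tnfrsf11b to Tnfsf11 FPKM was 276, 119, 0.359 and 27.6 in Luc and 57.8, 19.6, 9.21 and 7.81 in cFos. It was lower in cFos in clones 2, 4 and 12 and higher in clone 8, and Luc 8 was the only library with more Tnfsf11 than Tnfrsf11b. Tnfrsf11a, which encodes RANK on osteoclast precursors (mm9 chr1:107677300-107744558), ranged from 0.0356 to 0.997 FPKM in Luc and 0.254 to 0.422 in cFos. Of 10 osteoclast markers 4 were tested and 2 rose, beside 2.92% of all genes tested, namely Nfatc1, a transcription factor of osteoclasts and other cells (8.77 and 23.7 FPKM, limma adjusted p = 0.00605), and Atp6v0d2, a proton pump subunit (0.108 and 14.3 FPKM, 8.46e-04). Atp6v0d2 passed the filter on level only through its 4 cFos libraries, so it had to differ and its count is no support. The protease Ctsk averaged 23.6 ± 29.8 and 14.5 ± 12.0 FPKM and did not pass (log2 difference -0.09, limma adjusted p = 0.976), nor did the integrin Itgb3 (3.10 ± 0.559 and 3.83 ± 2.13 FPKM, 0.13, 0.872). Mmp9, a protease that was not tested, averaged 0.982 ± 0.570 and 0.246 ± 0.261 FPKM and was lower in cFos in all 4 clones. Acp5, also not tested, went the other way and was higher in cFos in all 4 clones. It ran from 0.0405 to 0.284 FPKM in Luc and from 0.352 to 2.49 in cFos. The list summed to 15.2 to 78.7 FPKM in Luc and 44.5 to 72.8 in cFos, Dcstamp, needed for osteoclast fusion, was listed at 0 in 6 libraries, and the part of such cells in these values was not tested.

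**Figure D4:**
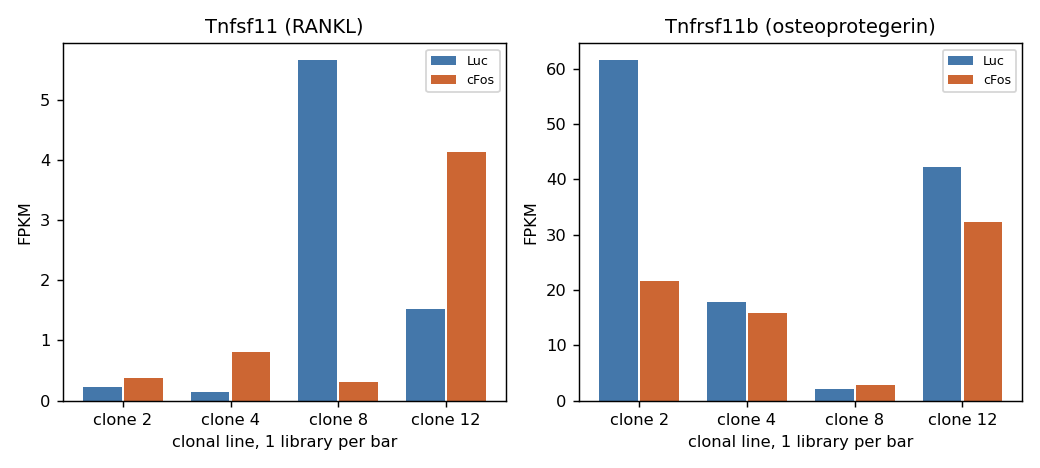
FPKM of Tnfsf11 (RANKL) and Tnfrsf11b (osteoprotegerin) by clone on linear axes from 0, with 1 bar per library, blue for Luc and orange for cFos. Tnfsf11 is highest in Luc 8 at 5.66 FPKM, the clone in which Tnfrsf11b is lowest.

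The clones were compared with an F test in limma on a model that also held the arm. Tnfrsf11b was the 1 member of 13 that differed between clones, beside 0.484% of all genes tested. Its clone means were 41.6, 16.9, 2.44 and 37.2 FPKM (F = 36.1, adjusted p = 0.0481). The call was lost when Luc 4, cFos 4, Luc 8, Luc 12 or cFos 12 was left out, and the highest adjusted p was then 0.156. At an unadjusted p under 0.05 the count was 3 of 13, beside 16.5% of all genes.

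The other members were low. Tnfrsf14, the receptor HVEM (mm9 chr4:154296319-154302186), had 1.801, 1.25, 3.16 and 0.360 FPKM in Luc and 0.376, 0.437, 0.754 and 0.530 in cFos. It was lower in cFos in 3 clones and not in clone 12, and it was not tested since 3 libraries reached 1 FPKM. Tnfsf13b, which encodes the B-cell survival factor BAFF, averaged 0.362 ± 0.278 and 0.0767 ± 0.0231 FPKM, with all cFos libraries below all Luc libraries at levels under 1 FPKM. Tnfsf14, the ligand LIGHT, was listed at 0 in all 8 libraries.

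Of 8 further superfamily receptors whose symbols have other stems, 3 were tested and 1 fell, beside 2.62% of all genes tested. The 1 that fell was Fas, the death receptor for Fas ligand (mm9 chr19:34365149-34402260). Fas had 3.75, 2.90, 7.25 and 4.11 FPKM in Luc and 0.9996, 0.827, 1.82 and 1.50 in cFos. Fas passed the filter on level through its 4 Luc libraries, as 2 of its cFos libraries reached 1 FPKM. Its count is therefore no support. Each cFos library lay below each Luc library, and the log2 difference was -1.45 (SE 0.29, limma adjusted p = 0.0226). The call was lost without Luc 2 (0.0502), cFos 2 (0.0791) or cFos 4 (0.0699), and without the filter on level (0.0591). With the clone as a block Fas also passed (limma adjusted p = 0.00577). Ltbr, the lymphotoxin beta receptor, averaged 49.4 ± 4.48 and 38.5 ± 4.89 FPKM and did not pass (limma adjusted p = 0.169), nor did Relt, a receptor of lymphoid tissue (2.71 ± 0.520 and 2.41 ± 0.295 FPKM, limma adjusted p = 0.706). Among those not tested, Eda2r, a receptor for an ectodysplasin isoform, went the other way, from 0 to 0.131 FPKM in Luc to 0.309 to 3.07 in cFos, with no overlap. Edar, the ectodysplasin receptor, had 0.199 to 1.93 FPKM in Luc and 0.0290 to 0.0410 in cFos, also with no overlap. Of all genes tested, 13.7% had groups that did not overlap. Genes that the filter left out were not counted in that share, so it gives no background for Eda2r and Edar. Of 7 ligands with other symbols, 6 were under 1 FPKM in every library, and Eda, the ligand ectodysplasin, did not pass (log2 difference -0.78, limma adjusted p = 0.205).

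Among genes downstream of the receptors, 2 of 12 tested TRAF adaptors and associated regulators fell, 0 rose and the list's median was -0.45 (5 lower and 0 higher at an unadjusted p under 0.05). Over all genes tested 2.62% fell, 11.1% were lower at an unadjusted p under 0.05, and the median was -0.06. Tnfaip3, which encodes the NF-kappaB inhibitor A20, averaged 11.9 ± 7.98 FPKM in Luc and 2.09 ± 1.02 in cFos (log2 difference -2.11, SE 0.46, limma adjusted p = 0.0317). Traf5, an adaptor of several members, averaged 6.35 ± 1.29 and 3.39 ± 0.597 FPKM (-0.81, limma adjusted p = 0.0417). The Tnfaip3 call was lost without any of 6 libraries (all but Luc 8 and cFos 12), and that of Traf5 without any but Luc 4, with adjusted p up to 0.0921 and 0.107. Without the filter neither passed (0.0783 and 0.0846), nor did Traf5 with median-ratio scaling (0.0501) or without clone 8 (0.126). With the clone as a block Tnfaip3 and Traf5 also passed (limma adjusted p = 0.0129 and 0.0370). Of 9 tested death domain adaptors and partners, 1 rose and 0 fell (median -0.02), beside 2.92% and 2.62% of all genes tested. The gene that rose was Cflar, whose product c-FLIP holds back caspase 8, at 8.17 ± 0.754 and 12.9 ± 0.140 FPKM (log2 difference 0.63, limma adjusted p = 0.0154, 0.0558 without cFos 2 and 0.0562 without cFos 4). With the clone as a block Cflar also passed (limma adjusted p = 0.0249).

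None of the 12 tested IKK, NIK and linear ubiquitin genes passed in limma (median -0.19, 1 higher and 2 lower at an unadjusted p under 0.05), nor did any of 12 NF-kappaB subunits and targets (median -0.03, 1 higher and 1 lower). Icam1, also on the NF-kappaB list, was too low to be tested. It ran from 0.131 to 0.251 FPKM in Luc and 0.0303 to 0.0747 in cFos. Without the filter Icam1 passed as lower in cFos (limma adjusted p = 0.0392). With the clone as a block, Map3k14, which encodes the kinase NIK, fell (4.82 and 2.84 FPKM, limma adjusted p = 0.0333, 0.0880 without the block). In the same fit Tnfaip2, a TNF-induced gene, rose (0.0476) and Nfkbie, an NF-kappaB inhibitor, fell (0.0406). Of all genes tested, 8.79% passed in that fit. Of 9 tested regulators of osteoclast formation, 1 rose and 1 fell (median -0.63), beside 2.92% and 2.62% of all genes tested. Il34, a ligand of the CSF1 receptor, averaged 2.03 ± 1.20 and 8.21 ± 2.39 FPKM (log2 difference 1.86, limma adjusted p = 0.0166, 0.0619 without cFos 2 and 0.0562 without cFos 4). Vdr, the vitamin D receptor, averaged 6.38 ± 4.28 and 1.17 ± 1.18 FPKM (-2.09, limma adjusted p = 0.0442), a call lost without any library but cFos 12, with adjusted p up to 0.123, without clone 8 (0.115) and without the filter (0.0993). Vdr passed the filter on level through its 4 Luc libraries, as 1 of its cFos libraries reached 1 FPKM, so its count is no support. Within clones its log2 differences were -2.12, -2.18, -2.11 and -1.95. With the clone as a block Vdr and Il34 also passed (limma adjusted p = 0.00154 and 0.0173). With the block Sema3a, which restrains osteoclast formation, also fell (limma adjusted p = 0.0165, 0.0665 without it). The list's 3 other genes were not tested. Pthlh ran from 0 to 0.0576 FPKM in Luc and 0.299 to 0.841 in cFos. Il11 ran from 0.0277 to 0.0822 and 0.332 to 1.66. Both were higher in cFos in all 4 clones, while Wnt16 (0.0347 to 8.44 and 0 to 0.834) was lower in all 4. Without the filter Pthlh passed (limma adjusted p = 0.0255), and Il11 (0.0997) and Wnt16 (0.619) did not.

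**Figure D5:**
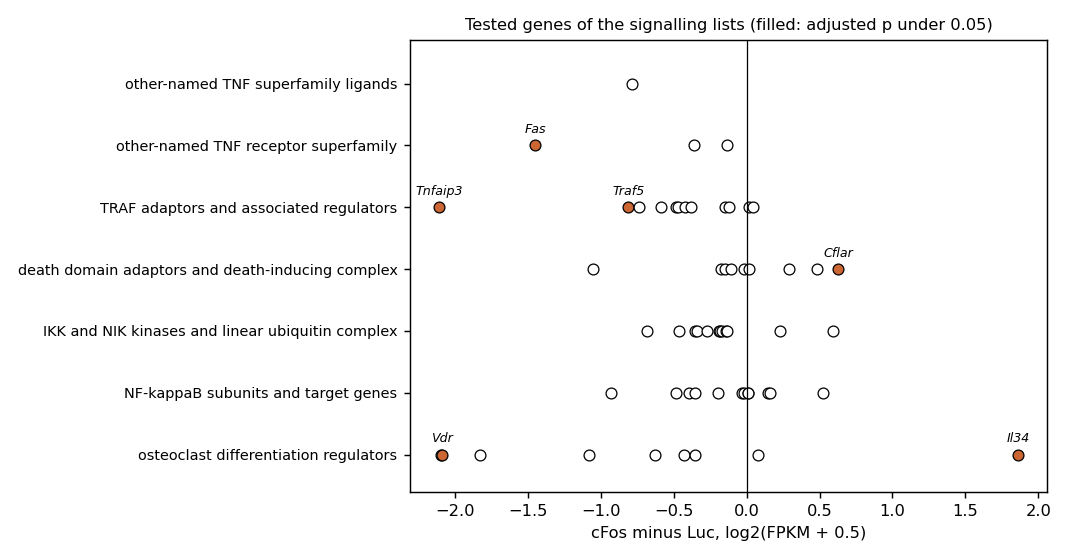
Log2 difference of cFos minus Luc for each tested gene of 7 signalling lists, 1 point per gene, filled where limma's adjusted p was under 0.05. The filled points are Fas, Tnfaip3, Traf5 and Vdr below 0 and Cflar and Il34 above 0.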

How the data were processed

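The authors' tools were TopHat, Cufflinks and CASAVA 1.8.2 on build mm9, per the submitters' processing notes. Other versions, options and the annotation were not given in the sources used here. The deposited tables hold, per the file headers, FPKM with confidence limits and coverage (a signal, mean depth per base) for each of 30769 transcript entries. An NCBI RefSeq table named 30227 entries and GENCODE M21 metadata 180, and 362 were unmatched. Entries were summed per symbol, and 3 genes with a status other than OK were left out, none a member. Reads shared by overlapping genes are split by a model.

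Tests used limma 3.58.1 (R 4.3.3, mean-variance trend, two-sided, no clone term) on log2(FPKM + 0.5). Genes under 1 FPKM in more than 4 of 8 libraries were not tested. Benjamini-Hochberg adjustment ran over all 11162 tested. This scale understates changes of low genes. Clones are separate lines with 1 library per arm. Clone numbers pair the libraries, since they mark the same line, and deviations from arm means correlated by 0.174, 0.593, 0.349 and 0.437 within clones 2, 4, 8 and 12. Code was checked on simulated data.

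The members and lists were chosen with earlier results of these data known. The rule named Tnfsf11, Tnfrsf11a, Tnfrsf11b, members called in any fit, the 12 members of highest mean FPKM, members with a mean of at least 1 FPKM that the filter left out, and up to 4 genes per list with the smallest adjusted p. Other names were chosen after their values were seen.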

Additional observations from a re-analysis of the deposited data

Results flagged for a closer look

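In 2 cases a single library stood apart from the other 3 of its arm, with a gap to the nearest library above Dixon's 95% critical share of the arm's range. Tnfsf11 reached 4.13 FPKM in cFos 12 (gap 0.869 of the range), and Tnfsfm13 reached 7.50 FPKM in Luc 8 (0.954). They are 2 of 50 groups of 4 libraries examined, and chance marks about 1 group in 20. Tnfsf11 also went opposite ways in the clones, with a log2 difference of cFos minus Luc of 1.19 in clone 12 and -2.93 in clone 8, each from 1 library per arm, so the difference between clones was not tested.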

How the results depend on the processing

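With the clone as a replicate block, 981 genes passed (503 higher and 478 lower) in place of 619, and the members' count stayed at 1. No member's call changed with the block. Leaving out 1 library at a time gave 235 to 589 genes and 0 to 1 members. The members' count was 0 with no filter and without clone 8 (limma, 3 at an unadjusted p under 0.05 in each), an alternative chosen after seeing the data. For the clones, the 54 genes became 0 with no filter (2591 at an unadjusted p under 0.05), 6 at a minimum of 5 FPKM, 28 without clone 8 and 0 to 115 with 1 library left out. The member differing between clones, Tnfrsf11b, was lost (count 0) with a pseudocount of 0.1, no filter, a minimum of 5 FPKM, median-ratio scaling, the highest entry per gene and without clone 8, and the count was 0 to 1 with 1 library left out (over these settings 2 to 6 members at an unadjusted p under 0.05). The cause was not tested.

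The differences of Tnfsf11 and Tnfrsf11b turned with single libraries. Tnfsf11 ran from -0.68 to 0.55 and Tnfrsf11b from -1.37 to 0.285. Tnfrsf1b became 0.034 with median-ratio scaling and 0.043 with quantile normalization and ran from -0.18 to 0.14, and Tnfsf12 ran from -0.40 to 0.009. The other tested members named kept their direction. Low levels limit Tnfsf11, which rests on 2.85 to 94.6 kilobases of aligned sequence a library.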
